A study of Mus musculus with 3 samples.

Results

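Semaphorins, plexins and neuropilins were described in RNA from cells of mouse dura mater, the tough outer covering of the brain. Members were the protein-coding genes whose symbols are those of a semaphorin (Sema and a class number with a letter), a plexin (Plxn) or a neuropilin (Nrp1 or Nrp2). This gave 31 genes of the 54532 listed, namely 20 semaphorins, 9 plexins and 2 neuropilins. The mice carried 4T1-DM cells, given to model metastasis to the dura (4T1 being a breast cancer line of mouse origin). Their treatment was PBS, ZOL or ZOL+Ang2, and the labels do not spell out these names. Dorsal dura was taken on day 12, 6 mice were pooled per treatment, and CD45-CD31+PDPN+ cells (without a leukocyte antigen, and with an endothelial antigen and podoplanin) were profiled. All groups carried the inoculated cells, so no group is a healthy dura, and neither mouse strain nor age is given in the labels. Each group was 1 library, so no difference below was tested and none can be set against the spread between animals.

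Semaphorins are ligands that steer growing axons and also shape vessels, bone and immune cells. Class 3 members are secreted, most of them need a neuropilin to bind, and a plexin then carries the signal into the cell. Classes 4 to 6 are held in the membrane and class 7 by a lipid anchor, and these bind plexins directly. Plexins switch off small GTPases of the Ras and Rap type and loosen the contact of a cell with its matrix. In endothelium, NRP1 also assists the VEGF-A receptor KDR and NRP2 the VEGF-C receptor FLT4, and NRP2 is a known surface protein of lymphatic and venous endothelium.

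With TMM factors, the ligand Sema3e and its direct receptor Plxnd1 were not ordered alike across libraries, and neither were Sema3g and Nrp2. With median-of-ratios factors or the RPKM scale as deposited, Sema3g and Nrp2 had the same order, with PBS highest and ZOL+Ang2 lowest. The upstream sequences of these genes, of which Sema3g and Nrp2 are a pair that meets through a neuropilin, are given here. They come from RefSeq (GRCm38.p6), run 5′ to 3′ on the strand of the gene and end just before its annotated first base, with GC boxes (GGGCGG on either strand, so CCGCCC where it lies on the other one) in capitals. The positions are chr5:14025026-14025275 (plus strand), chr6:115995006-115995255 (minus), chr14:31217623-31217859 (plus) and chr1:62703067-62703284 (plus).
Sema3e: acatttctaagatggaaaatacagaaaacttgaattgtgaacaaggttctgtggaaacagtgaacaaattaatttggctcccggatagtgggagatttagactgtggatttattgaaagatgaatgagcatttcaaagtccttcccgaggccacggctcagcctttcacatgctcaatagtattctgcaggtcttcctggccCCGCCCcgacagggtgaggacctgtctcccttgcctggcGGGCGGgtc
Plxnd1: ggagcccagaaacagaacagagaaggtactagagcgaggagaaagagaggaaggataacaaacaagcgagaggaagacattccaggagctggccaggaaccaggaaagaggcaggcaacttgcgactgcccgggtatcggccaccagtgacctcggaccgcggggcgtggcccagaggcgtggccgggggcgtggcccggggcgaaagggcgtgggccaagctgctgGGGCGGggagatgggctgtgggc
Sema3g: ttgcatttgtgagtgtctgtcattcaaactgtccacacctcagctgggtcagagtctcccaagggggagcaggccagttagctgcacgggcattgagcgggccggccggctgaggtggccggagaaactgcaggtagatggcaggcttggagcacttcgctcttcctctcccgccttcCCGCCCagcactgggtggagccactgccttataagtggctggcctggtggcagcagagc
Nrp2: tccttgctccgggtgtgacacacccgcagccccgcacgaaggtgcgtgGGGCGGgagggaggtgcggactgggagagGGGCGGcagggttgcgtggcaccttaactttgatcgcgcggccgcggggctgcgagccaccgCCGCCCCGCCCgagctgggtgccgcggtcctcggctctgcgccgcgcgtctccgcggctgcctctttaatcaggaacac

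A promoter was found in RefSeq's table for 26 of the 31 members, with 37 windows in all, since some genes have several starts. In the 250 bases before the start, a GC box, the site of Sp and KLF factors, stood in 27 of the 37 windows (73.0%), against 42.6% of 21263 windows of protein-coding genes. An ETS core (CCGGAAG) stood in 1 member window, that of Plxnb1, against 8.98% of protein-coding windows. A TATA box (TATAAA) and a FOX site (TGTTTAC) were in none of the 37, against 11.6% and 2.62% of protein-coding windows. Both strands were read and the 4 words do not overlap each other. Member windows held a median of 13 CG dinucleotides against 10 in protein-coding windows. These are letters in a window, and nothing here measured binding.

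The libraries differed in depth and make-up. Reads recovered from the RPKM values numbered 1675532 for PBS, 16586760 for ZOL and 9204901 for ZOL+Ang2, and PBS values were the least precise. Gate transcripts did not follow the labels evenly. Pecam1 (CD31) had 2 reads in PBS, 475 CPM (reads scaled to a common library total) in ZOL and 177 in ZOL+Ang2, while Pdpn stood at 18.8, 67.5 and 171 CPM and Ptprc (CD45) at 156, 25.1 and 76.1. Of 6 lymphatic markers, which summed to 256, 96.1 and 43.7 CPM, Lyve1 had 0 reads in each library and Prox1 2 reads in PBS alone. Mmrn1 had 288, 181 and 105 reads, Reln 185, 135 and 69, Flt4 1, 1113 and 209, and Ccl21a 0, 80 and 0. A list of 12 endothelial genes summed to 3444 CPM in PBS, 3968 under ZOL and 1350 under ZOL+Ang2. Of these sums Cldn5 alone gave 1772, 1151 and 326 CPM. In PBS, Erg had 2 reads and Cdh5 25, while Tie1 had 302 and Icam2 406. Against PBS, 5 of the 12 were at least 2-fold higher in ZOL and 1 lower (49.2% and 29.4% of all genes). A list of 6 fibroblast genes summed to 343, 454 and 10780 CPM, with Lum and Pdgfra at 0 in PBS. A list of 8 myeloid genes summed to 1019, 99.2 and 1867 CPM, with Cd68 and Itgam at 0 in each, and 6 neuronal genes to 162, 85.5 and 4.79. Red cell genes (5) summed to 191, 5.54 and 25144 CPM and epithelial genes (5) to 542, 4687 and 4394. The epithelial genes did not move alike. Krt8 gave 165, 2451 and 2057 CPM, Krt18 151, 1911 and 1885, and Epcam 60.8, 203 and 370. Cdh1 was highest in PBS (165, 84.8 and 81.3 CPM), and Krt19 stood at 0, 37.3 and 1.03 CPM. In PBS, olfactory and vomeronasal receptor genes also took 3.02% of reads, compared with 0.0523% under ZOL and 0.157% under ZOL+Ang2. In such mixed RNA, fewer cells of a type and less RNA per cell cannot be told apart, and the part of these shifts in the results below was not tested.

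Of the 31 members, 18 had reads in PBS, 23 under ZOL and 19 under ZOL+Ang2, and 10 had reads in all libraries. That is 58.1%, 74.2% and 61.3%, against 49.7%, 61.2% and 52.6% of all 21995 protein-coding genes. Together the members took 0.121%, 0.122% and 0.0849% of reads. Levels below are CPM per kilobase of exon, which allow genes of different length to be compared, and the ranges after them are exact 95% Poisson intervals for counting error. A gene with 0 reads is given a floor of 3 reads in that library.

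In PBS the order of levels was led by Sema3c (35.3), followed by Nrp1 (20.2), Plxnb2 (15.7), Sema3g (12.6) and Sema3e (9.97). In ZOL it was Nrp1 (30.6), Plxnb2 (21.3), Plxnd1 (20.3), Nrp2 (11.9) and Sema3f (9.79). In ZOL+Ang2 it was Nrp1 (37.7), Sema3f (20.98), Plxnb2 (16.1), Nrp2 (7.79) and Plxna2 (4.90). The receptors Nrp1, Plxnb2 and Nrp2 were therefore among the 7 highest members of each library, whereas the leading ligand changed from Sema3c to Sema3f. Some neighbours in these orders were not separated by counting error. Plxnb2 (20.4 to 22.1) and Plxnd1 (19.5 to 21.2) overlapped in ZOL, as did Sema3g (10.3 to 15.2) and Sema3e (8.53 to 11.6) in PBS, and Plxna2 (4.55 to 5.27) and Sema3e (4.23 to 5.19) in ZOL+Ang2.

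**Figure D1:**
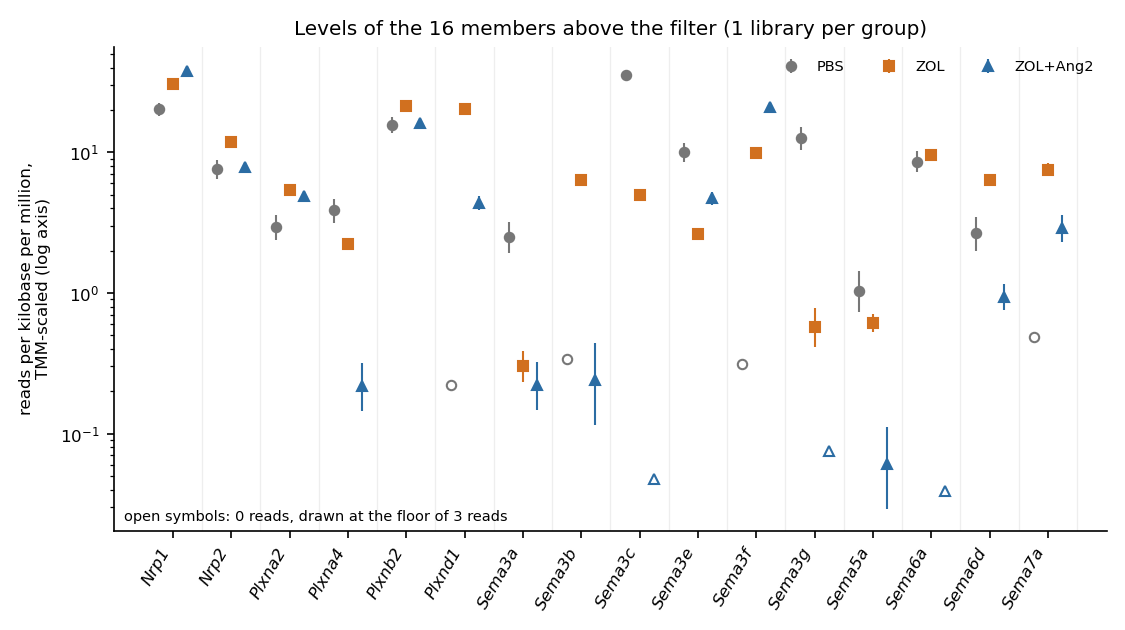
Level of each of the 16 members with a mean of at least 10 CPM, in CPM per kilobase on a log axis, with 1 symbol per library and bars for the exact 95% Poisson interval. Nrp1, Nrp2, Plxna2 and Plxnb2 stay within 2-fold across the 3 libraries with TMM factors, while Plxnd1, Sema3b, Sema3c, Sema3f, Sema3g, Sema6a and Sema7a have 0 reads in 1 library each.

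Nrp1 (ENSMUSG00000025810; mm10 chromosome 8, 128358604 to 128503363), co-receptor of class 3 semaphorins and of VEGF-A, had 367 reads in PBS, 4702 under ZOL and 3237 under ZOL+Ang2, at levels of 20.2 (18.2 to 22.4), 30.6 (29.7 to 31.5) and 37.7 (36.4 to 39.0). It was lowest in PBS and highest in ZOL+Ang2 on this scale, and the intervals did not overlap. ZOL was 1.52-fold higher than PBS (95% exact binomial interval 1.36 to 1.69) and ZOL+Ang2 1.23-fold higher than ZOL (1.18 to 1.29). The direction against PBS depended on scaling and depth. The log2 ratio of ZOL to PBS was 0.59 with TMM factors, -0.26 with median-of-ratios factors and -0.71 on the RPKM scale as deposited. With TMM factors after thinning to the smallest library it was -0.05.

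Nrp2 (ENSMUSG00000025969; chromosome 1, 62703285 to 62818695), which pairs with FLT4 in lymphatic endothelium, had 166, 2205 and 809 reads in PBS, ZOL and ZOL+Ang2, at levels of 7.54, 11.9 and 7.79. ZOL was highest, and PBS and ZOL+Ang2 overlapped in their intervals (6.44 to 8.78 and 7.26 to 8.35). ZOL+Ang2 was 1.52-fold lower than ZOL (1.40 to 1.65), a direction held by all 3 scalings, whereas the log2 ratio of ZOL to PBS turned from 0.62 to -0.21 with median-of-ratios factors and -0.64 on the deposited scale.

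Between the neuropilins a ratio inside a library needs no scaling. Nrp2 made up 27.2% of the summed neuropilin level in PBS (exact interval 23.6 to 31.0), 27.9% in ZOL (26.9 to 29.0) and 17.1% in ZOL+Ang2 (16.03 to 18.2). PBS and ZOL overlapped and ZOL+Ang2 lay below both. The level of Nrp1 was thus 2.68, 2.58 and 4.84 times that of Nrp2 in PBS, ZOL and ZOL+Ang2.

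Kdr, the VEGF-A receptor, gave a second measure that does not depend on scaling, chosen after values were seen. The ratio of Nrp1 to Kdr was 0.866 in PBS (0.749 to 1.001), 1.09 in ZOL (1.04 to 1.14) and 1.96 in ZOL+Ang2 (1.84 to 2.08). That of Nrp2 to Kdr was 0.324, 0.422 and 0.404, with ZOL (0.401 to 0.445) and ZOL+Ang2 (0.371 to 0.441) overlapping. Set against Cdh5, the cadherin of endothelial junctions, Nrp2 stood at 0.883 in ZOL and 0.889 in ZOL+Ang2, and at 2.36 in PBS, where Cdh5 had 25 reads. Nrp1 stood at 4.30 times Cdh5 in ZOL+Ang2 and 2.28 times in ZOL. Kdr and Cdh5 are the 2 of the 12 endothelial genes that lay within 2-fold between these libraries, at log2 ratios of -0.53 and -0.55, and the other 10 ran from -1.24 to -3.55. The log2 ratio of Nrp1 (0.30) was above those of all 12, and that of Nrp2 (-0.58) above those of the 10, so the close Nrp2 ratios hold for Kdr and Cdh5 alone. Fibroblast and myeloid genes, from cells that can also express Nrp1, were higher in ZOL+Ang2 as given above, and their part in the ratio was not tested.

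**Figure D2:**
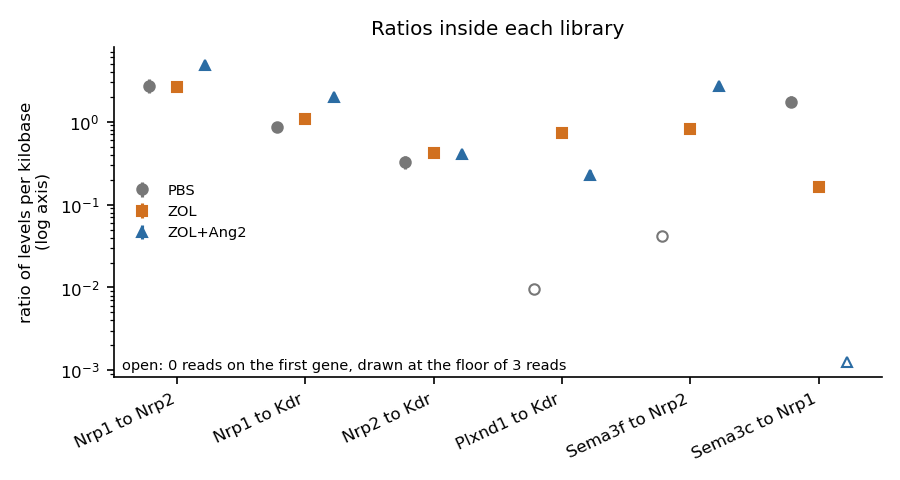
Ratios of levels per kilobase of gene pairs inside each library, on a log axis, with exact 95% binomial intervals. Nrp1 to Nrp2 and Nrp1 to Kdr are highest in ZOL+Ang2, Nrp2 to Kdr is close in ZOL and ZOL+Ang2, Plxnd1 to Kdr is 0.724 in ZOL and 0.227 in ZOL+Ang2, and Sema3c to Nrp1 is 1.75 in PBS and at a floor in ZOL+Ang2.

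Plexin D1 was absent from the reads of PBS and high in ZOL. Plxnd1 (ENSMUSG00000030123; chromosome 6, 115954811 to 115995005), the endothelial receptor that SEMA3E binds without a neuropilin, had 0 reads in PBS, 2330 under ZOL and 280 under ZOL+Ang2. Its level was 20.3 in ZOL and 4.37 in ZOL+Ang2, with a floor of 0.221 in PBS. ZOL was at least 91.9-fold higher than PBS and ZOL+Ang2 was 4.65-fold lower than ZOL (4.10 to 5.28). It made up 39.1% of the summed plexin level in ZOL (37.9 to 40.3) and 17.1% in ZOL+Ang2 (15.3 to 18.9), and 0 of 423 plexin reads in PBS, which allows up to 0.709% of those reads.

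The 0 of Plxnd1 in PBS has to be read against that library. Of 5023 genes with at least 20 CPM in both ZOL and ZOL+Ang2, 19.97% had no reads in PBS. Relative to Kdr, Plxnd1 stood at 0.724 in ZOL (0.688 to 0.762) and 0.227 in ZOL+Ang2 (0.199 to 0.258), and relative to Cdh5 at 1.51 and 0.499. Its ratio to these endothelial genes was thus lower in ZOL+Ang2, but they were the least changed of the 12. The 12 endothelial genes had a median log2 ratio of -1.57 in ZOL+Ang2 against ZOL, and Plxnd1 stood at -2.05, below 8 of them and above 4 (Tie1 at -2.68, Erg at -2.84, Clec14a at -3.40 and Icam2 at -3.55).

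Plxnb2 (ENSMUSG00000036606; chromosome 15, 89155549 to 89180788) is a widely expressed receptor of class 4 semaphorins. Its level was 15.7 in PBS, 21.3 under ZOL and 16.1 under ZOL+Ang2, from 225, 2576 and 1088 reads. ZOL+Ang2 was 1.32-fold lower than ZOL (1.23 to 1.42), and PBS (13.7 to 17.9) overlapped ZOL+Ang2 (15.1 to 17.1). The ZOL to PBS log2 ratio of 0.42 turned to -0.42 with median-of-ratios factors and -0.85 on the deposited scale.

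Among the A plexins, which pair with neuropilins or bind class 6 semaphorins, Plxna2 and Plxna4 passed the filter. Plxna2 had 94, 1460 and 738 reads in PBS, ZOL and ZOL+Ang2 at levels of 2.95, 5.42 and 4.90, and ZOL+Ang2 was 1.11-fold lower than ZOL (1.01 to 1.21), a direction that both other scalings turned (log2 ratios of 0.05 and 0.03). Plxna4, best known from neurons, had 101, 496 and 27 reads at levels of 3.85, 2.24 and 0.218. It was 10.3-fold lower in ZOL+Ang2 than in ZOL (6.97 to 15.7). The neuronal list summed to 162, 85.5 and 4.79 CPM, of which Snap25 gave 75.9, 49.9 and 4.45, while Tubb3 had 0, 180 and 0 reads. The part of neuronal RNA in the Plxna4 values was not tested.

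The other plexins were low. Plxna1 had 0, 283 and 4 reads in PBS, ZOL and ZOL+Ang2, Plxna3 had 3, 65 and 0, and Plxnb1, a receptor of SEMA4D, had 0, 35 and 2. Each of these was highest in ZOL, the deepest library, at levels of 1.99, 0.525 and 0.232. Plxnb3 and Plxnc1, the plexin that binds SEMA7A, had 0 reads in all libraries, which allows levels of up to 0.249 and 0.193 in PBS and 0.0294 and 0.0229 in ZOL.

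Class 3 semaphorins made up 80.6% of the summed semaphorin level in PBS (78.3 to 82.8), 42.2% in ZOL (40.9 to 43.5) and 83.1% in ZOL+Ang2 (81.1 to 84.9). ZOL lay far below the others, which overlapped. As shares of reads, without division by length, PBS (76.4%, 73.7 to 78.9) and ZOL+Ang2 (84.7%, 82.8 to 86.4) did not overlap. The genes behind the PBS and ZOL+Ang2 shares differed, since Sema3c held 58.1% of the class 3 level in PBS and Sema3f 80.0% in ZOL+Ang2.

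**Figure D3:**
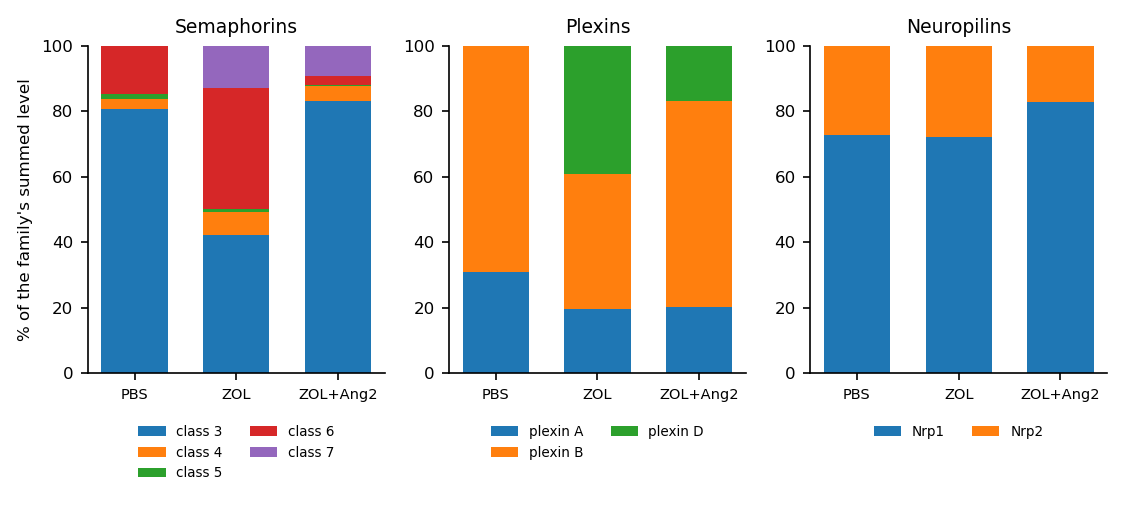
Share of the summed level per kilobase of each family, in percent, taken by semaphorin classes 3 to 7, by plexin types A, B and D, and by Nrp1 and Nrp2, in 1 library per bar. Class 3 takes 80.6% in PBS, 42.2% under ZOL and 83.1% under ZOL+Ang2, and plexin D takes 0% in PBS, 39.1% under ZOL and 17.1% under ZOL+Ang2.

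Sema3c (ENSMUSG00000028780; chromosome 5, 17574281 to 17730268), a ligand of both neuropilins with a known role in the outflow tract of the heart, had 468 reads in PBS, 559 under ZOL and 0 under ZOL+Ang2. Its level stepped down from 35.3 (32.1 to 38.6) to 4.99 (4.58 to 5.42) and to a floor of 0.0479. ZOL was 7.07-fold lower than PBS (6.24 to 8.01) and ZOL+Ang2 at least 104-fold lower than ZOL. Of 2839 genes with at least 20 CPM in both PBS and ZOL, 4.47% had no reads in ZOL+Ang2. The ratio of Sema3c to Nrp1 went from 1.75 in PBS (1.52 to 2.01) to 0.163 in ZOL (0.149 to 0.178).

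Sema3g (ENSMUSG00000021904; chromosome 14, 31217860 to 31230352), which binds NRP2 and is known as a gene of arterial endothelium, had the same order. It had 106, 41 and 0 reads in PBS, ZOL and ZOL+Ang2, at levels of 12.6 and 0.575 and with a floor of 0.0754. ZOL was 21.8-fold lower than PBS (15.1 to 32.1), and ZOL+Ang2 at least 7.63-fold lower than ZOL. With 5 CPM added to both, the log2 ratio of ZOL+Ang2 to ZOL was -0.61, which is within 2-fold. After thinning to the smallest library it was 0, so the step from ZOL to ZOL+Ang2 was not seen at equal depth. Sema3g passed the filter through PBS alone.

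Sema3a, the founding axon repellent, which needs NRP1, had 64, 66 and 27 reads at levels of 2.48, 0.303 and 0.222, and it too passed the filter through PBS alone. ZOL was 8.19-fold lower than PBS (5.72 to 11.7), and the ZOL and ZOL+Ang2 intervals (0.234 to 0.386 and 0.146 to 0.323) overlapped.

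Sema3e (ENSMUSG00000063531; chromosome 5, 14025276 to 14256689), ligand of plexin D1, had 172, 384 and 382 reads in PBS, ZOL and ZOL+Ang2. Its level was 9.97 in PBS, 2.63 under ZOL and 4.69 under ZOL+Ang2, with no overlap of the intervals. ZOL was 3.78-fold lower than PBS (3.14 to 4.54) and ZOL+Ang2 1.78-fold higher than ZOL (1.54 to 2.06). Ligand and receptor were thus not ordered alike, since Plxnd1 was at 0 in PBS and highest in ZOL.

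Sema3f (ENSMUSG00000034684; chromosome 9, 107681500 to 107710475), an NRP2 ligand known to restrain vessel and lymphatic growth, had 0 reads in PBS, 799 under ZOL and 956 under ZOL+Ang2. Its level was 9.79 (9.13 to 10.5) in ZOL and 20.98 (19.7 to 22.3) in ZOL+Ang2, with a PBS floor of 0.311. ZOL was at least 31.5-fold higher than PBS and ZOL+Ang2 2.14-fold higher than ZOL (1.95 to 2.36). Sema3f was the member at least 2-fold higher in ZOL+Ang2 than in ZOL under all 3 scalings. Of 2735 genes with at least 50 CPM in both other libraries, as Sema3f had, 13.7% had no reads in PBS.

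Set against its receptor, Sema3f stood at 0.826 times the level of Nrp2 in ZOL (0.761 to 0.896) and at 2.69 times in ZOL+Ang2 (2.45 to 2.96). The ratio of Sema3f to Sema3e was closer, at 3.72 in ZOL (3.29 to 4.21) and 4.47 in ZOL+Ang2 (3.97 to 5.05).

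Sema3b had 0, 478 and 10 reads in PBS, ZOL and ZOL+Ang2, with levels of 6.37 in ZOL and 0.239 in ZOL+Ang2 and a floor of 0.338 in PBS. It was 26.7-fold lower in ZOL+Ang2 than in ZOL (14.4 to 56.0), and passed the filter through ZOL alone. Sema3d, the remaining class 3 gene, had 6, 0 and 6 reads.

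Class 6 semaphorins, membrane ligands of A plexins, held 14.9% of the semaphorin level in PBS, 37.0% under ZOL and 2.98% under ZOL+Ang2. Sema6a (ENSMUSG00000019647) had 140, 1308 and 0 reads, at levels of 8.58 (7.22 to 10.1) in PBS and 9.49 (8.98 to 10.02) in ZOL, which overlapped (log2 ratio 0.14, turning to -0.68 with median-of-ratios factors and -1.11 on the deposited scale), and with a floor of 0.0390 in ZOL+Ang2. It was at least 244-fold lower in ZOL+Ang2 than in ZOL. Of 1420 genes with at least 50 CPM in both PBS and ZOL, as Sema6a had, 1.97% were at 0 reads in ZOL+Ang2.

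Sema6d (ENSMUSG00000027200; chromosome 2, 124089969 to 124667770), which binds plexin A1, had 52, 1059 and 87 reads in PBS, ZOL and ZOL+Ang2, at levels of 2.65, 6.39 and 0.940. ZOL was highest with no overlap of intervals, and ZOL+Ang2 was 6.80-fold lower than ZOL (5.46 to 8.56). ZOL was 2.41-fold higher than PBS (1.82 to 3.25) with TMM factors, but the log2 ratio was -0.05 on the deposited scale. Sema6b had 0, 358 and 0 reads, with a level of 5.75 in ZOL, and Sema6c had none in any library.

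Sema7a (ENSMUSG00000038264; chromosome 9, 57940112 to 57962865), which signals through an integrin as well as plexin C1, had 0, 390 and 84 reads in PBS, ZOL and ZOL+Ang2. Its level was 7.53 (6.80 to 8.32) in ZOL and 2.90 (2.32 to 3.60) in ZOL+Ang2, with a floor of 0.490 in PBS. ZOL+Ang2 was 2.59-fold lower than ZOL (2.04 to 3.32). The log2 ratio of -1.03 was -0.85 with median-of-ratios factors and -0.39 after thinning to the smallest library. Sema7a passed the filter through ZOL alone. Sema5a had 36, 179 and 10 reads at levels of 1.04, 0.610 and 0.0610, and was 9.999-fold lower in ZOL+Ang2 than in ZOL (5.31 to 21.2).

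Class 4 semaphorins, membrane ligands of B plexins, were low, with 6.85% of the semaphorin level in ZOL as their highest share, and none passed the filter. Sema4d, a signal between lymphocytes, osteoclasts and endothelium, had 0, 280 and 0 reads in PBS, ZOL and ZOL+Ang2. Sema4b had 19, 127 and 14. Sema4a, made by dendritic and T cells, had 0, 0 and 54 and was thus seen in ZOL+Ang2 only, at a level of 1.14 (0.856 to 1.49). The myeloid list summed to 1867 CPM there. That list also reached 1019 CPM for PBS and 99.2 for ZOL, where Sema4a had 0 reads. Of these sums Lyz2 alone gave 929 CPM in ZOL+Ang2, 737 in PBS and 68.8 in ZOL. In PBS, the library with the fewest reads, C1qb had 0 reads and Csf1r 2, while C1qa had 193, S100a8 197 and S100a9 132. The lymphocyte list stood at 0 CPM under ZOL+Ang2, against 288 CPM for PBS. The cell source of the Sema4a reads was not tested. Sema4c had 2, 18 and 0 reads, and shares 7.27% of its exon length with an antisense gene. Sema4f had 2 reads in PBS only, Sema5b had 1, 0 and 1, and Sema4g had none.

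Counted together, 16 of the 31 members reached a mean of 10 CPM and were compared across libraries by the log2 ratio of CPM plus 5. Of these 16, 4 (Sema3a, Sema3b, Sema3g and Sema7a) passed with 1 library alone at or above 10 CPM, so they had to differ. In ZOL against PBS, 5 members were at least 2-fold higher (Plxnd1, Sema3b, Sema3f, Sema6d and Sema7a), where 49.2% of all 10942 genes compared were higher. Another 4 were at least 2-fold lower (Sema3a, Sema3c, Sema3e and Sema3g), where 29.4% of all genes were lower. The median log2 ratio of the members was 0.51 and stood -0.43 from the median of all genes. With TMM factors all 4 lower members were class 3 genes, as were Sema3b and Sema3f among the 5 higher ones. With median-of-ratios factors Plxna4 (-1.48) and Sema5a (-1.23) were at least 2-fold lower too, and on the RPKM scale as deposited also Sema6a (-1.11). Of the 5 higher members, 4 had 0 reads in PBS.

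In ZOL+Ang2 against ZOL, 1 member (Sema3f) was at least 2-fold higher, where 16.2% of all genes were, and 8 were at least 2-fold lower (Plxna4, Plxnd1, Sema3b, Sema3c, Sema5a, Sema6a, Sema6d and Sema7a), where 24.8% of all genes were. The median log2 ratio of the members was -0.82, which is -0.80 from that of all genes. Beside this, 10 of the 12 endothelial genes were at least 2-fold lower and all 6 fibroblast genes at least 2-fold higher.

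Set against PBS, ZOL+Ang2 had 3 members at least 2-fold higher (Plxnd1, Sema3f and Sema7a) where 44.2% of all genes were, and 8 lower (Plxna4, Sema3a, Sema3c, Sema3e, Sema3g, Sema5a, Sema6a and Sema6d) where 33.1% were. These comparisons share libraries pair by pair, so their counts are not independent of each other.

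Scaling and depth set many of the directions against PBS. Thinning to the smallest library, with TMM factors, moved the median log2 ratio of all genes in ZOL against PBS from 0.94 to 0.09. The log2 ratios were then -0.05 for Nrp1, -0.04 for Nrp2, -0.21 for Plxnb2 and -0.68 for Sema6a. Plxna2 (0.18) and Sema6d (0.72) stayed above 0. Median-of-ratios factors moved the median log2 ratio of all genes in ZOL against PBS from 0.94 to -0.17, and the RPKM scale as deposited moved it to -0.83. Among the same 16 members, 4 were then at least 2-fold higher and 6 lower with median-of-ratios factors, where 37.4% and 41.7% of all genes were. On the deposited scale 4 were higher and 7 lower, where 32.2% and 48.4% were. Sema6d was the higher member that lost its call. For ZOL+Ang2 against ZOL the median of all genes stayed within 0.02 of 0 under each scaling. There 1 of the 16 was higher and 7 lower with median-of-ratios factors (17.2% and 19.4% of all genes), and as many on the deposited scale (15.5% and 18.1%), with Sema7a no longer past 2-fold. For ZOL+Ang2 against PBS 3 of the 16 were higher and 8 lower with median-of-ratios factors (36.5% and 42.9% of all genes), and 3 and 10 on the deposited scale (31.5% and 49.2%).

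**Figure D4:**
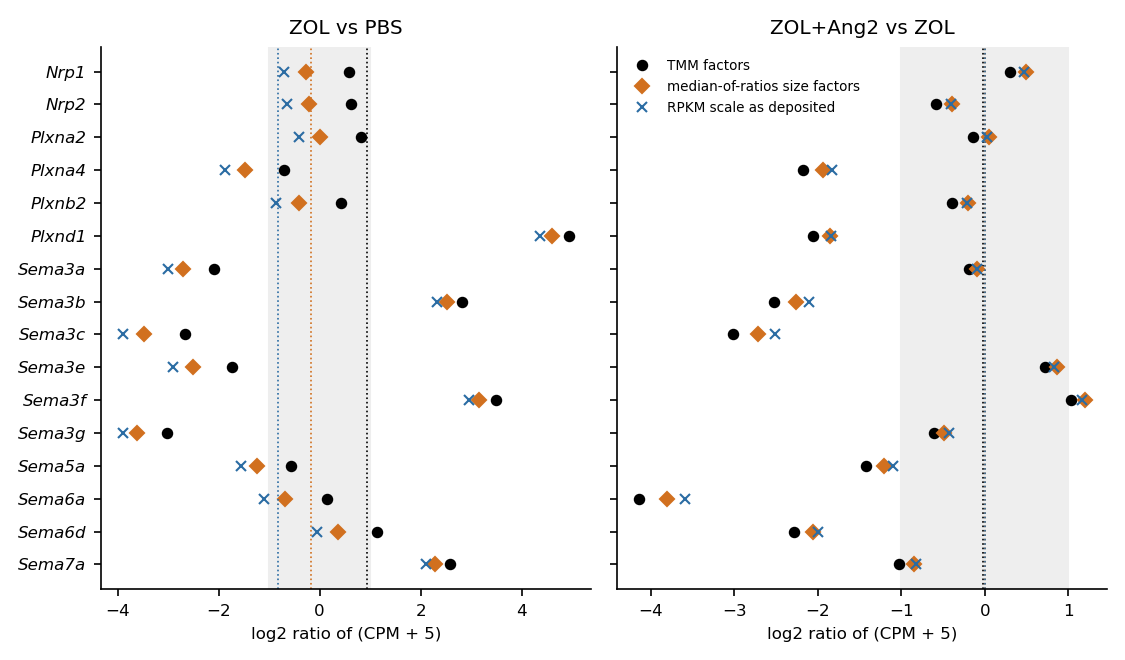
Log2 ratio of CPM plus 5 for the 16 members in 2 comparisons (ZOL with PBS, and ZOL+Ang2 with ZOL) under 3 scalings, with dotted lines at the median of all genes and a grey band within 2-fold. In ZOL against PBS, 1 or both of the other scalings move Nrp1, Nrp2, Plxna2, Plxnb2, Sema6a and Sema6d across 0. In ZOL+Ang2 against ZOL Sema3f lies above the band and Sema6a at -4.14 is lowest.

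Genes that act with the members were read from 3 lists. Of 19 receptor partners and co-receptors, 14 were compared. In ZOL against PBS 6 were at least 2-fold higher and 3 lower (49.2% and 29.4% of all genes), and in ZOL+Ang2 against ZOL 2 were higher and 4 lower (16.2% and 24.8% of all genes). Gipc1, whose product binds the tail of NRP1, had 0 reads in PBS and levels of 53.6 in ZOL and 49.0 in ZOL+Ang2. Flt4, partner of NRP2, had 1, 1113 and 209 reads in PBS, ZOL and ZOL+Ang2 at levels of 0.0654, 8.61 and 2.90, so that like Plxnd1 it was highest in ZOL. Met, a receptor that can join B plexins, was 3.58-fold lower in ZOL+Ang2 than in ZOL (2.94 to 4.39), and Nrcam, an adhesion partner of neuropilins, had 322 reads in ZOL and 0 in ZOL+Ang2.

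Tyrobp, a myeloid adaptor used by plexin A1 with TREM2, was higher in ZOL+Ang2 (level of 127) than in ZOL (2.48). The other genes of that complex ran the other way, with 0, 115 and 0 reads of Trem2 in PBS, ZOL and ZOL+Ang2. Plxna1 had 0, 283 and 4. Cspg4, a proteoglycan of pericytes, was higher in ZOL+Ang2 than in ZOL (5.22 against 0.117 per kilobase). Cspg4 belongs to a list of 6 mural (vessel wall) genes, whose sum was lower under ZOL+Ang2 (360 CPM) than under ZOL (838 CPM). Of the 5 mural genes compared, 2 were at least 2-fold higher in ZOL+Ang2 than in ZOL and 2 were lower. The part of pericyte RNA in the Cspg4 values was not tested. Cd72, a B cell receptor of SEMA4D, had 335 reads in PBS, 0 under ZOL and 2 under ZOL+Ang2, beside lymphocyte list sums of 288, 0.828 and 0 CPM. Itgb1, the integrin chain through which SEMA7A acts, had levels of 8.04, 104 and 159 in PBS, ZOL and ZOL+Ang2.

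Of 9 growth factors that bind neuropilins, 4 were compared, and 2 were higher and 2 lower in ZOL than in PBS, beside 49.2% and 29.4% of all genes. Pdgfb, the pericyte-recruiting factor of endothelium, had 297, 1054 and 1 reads in PBS, ZOL and ZOL+Ang2, at levels of 38.4, 16.1 and 0.0274. Vegfa had 0, 9 and 26 reads, and Vegfc, the lymphatic growth factor, had none.

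Of 36 genes of plexin signalling, 28 were compared, and in ZOL against PBS 17 were at least 2-fold higher and 2 lower (49.2% and 29.4% of all genes), with a median 0.82 above that of all genes. Between ZOL+Ang2 and ZOL 8 were higher and 7 lower (16.2% and 24.8% of all genes), with a median 0.10 above that of all genes. The collapsin response mediators, which pass semaphorin signals to microtubules, were among both extremes. Dpysl2 had levels of 0.476, 54.3 and 46.7 in PBS, ZOL and ZOL+Ang2, and Dpysl3 had 0 reads, 32.0 and 0.449, so that it was 71.3-fold lower in ZOL+Ang2 than in ZOL (48.6 to 109). Mical2, an actin-oxidising enzyme coupled to plexins, had 778 reads in ZOL+Ang2 and 0 in the other libraries. Fes, a kinase that plexin A1 activates, had levels of 0.212, 7.53 and 32.8.

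Small GTPases on which plexins act went different ways. Rap1a was 10.3-fold lower in ZOL+Ang2 than in ZOL (7.80 to 14.0), from levels of 23.1 and 2.23. Rap1b, at 51.3, 28.4 and 4.39 in PBS, ZOL and ZOL+Ang2, was lower in the same comparison. Rras had levels of 35.0, 2.73 and 23.3, with ZOL lowest, and the kinase Pak1 16.4, 3.97 and 20.2, also lowest in ZOL. Arhgef11, an exchange factor bound by B plexins, lay within 2-fold in ZOL+Ang2 against PBS on the log2 scale with a prior (-0.87).

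**Figure D5:**
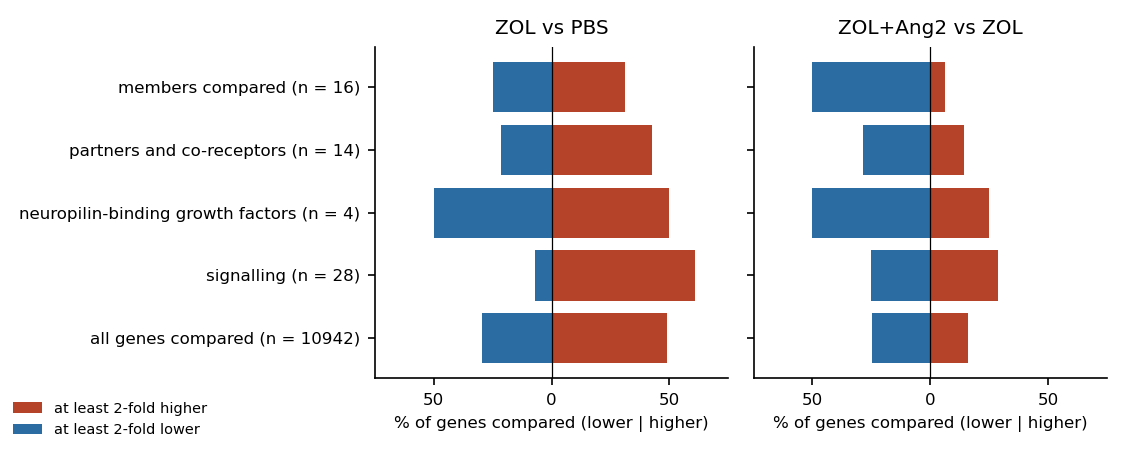
Percent of genes compared that were at least 2-fold lower (left) or higher (right), for the 16 members, 3 lists of genes that act with them and all 10942 genes, in 2 comparisons of 1 library each. With ZOL+Ang2 set against ZOL, 8 of 16 members are lower and 1 is higher, and of all genes 24.8% are lower and 16.2% higher.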

How the data were processed

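RNA of CD45-CD31+PDPN+ cells from dura was sequenced from 3 pools of 6 mice, 1 library per group, with groups taken from the treatment label. Per the labels' protocols, cDNA was amplified at full length with a single-cell kit. The deposited files hold RPKM values, which the authors computed with a library total not stated in the labels. The submitters' processing notes name mm10, featureCounts 2.0.6, HISAT2 2.2.1 and fastp, without roles, and strand handling is not stated.

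Reads were recovered by dividing each RPKM value times the gene's exon length (GENCODE M21, which also gave symbols) by 1 step per library. Within a tolerance of 0.01, 96.9% of PBS values, 96.4% of ZOL values and 96.2% of ZOL+Ang2 values were whole, and the rest were rounded. 37 genes without an exon length were left out. The reads came to 1.50, 0.701 and 0.785 times the total that the steps imply, so they may not be the authors' counts. Genes with 1 to 40 reads were even in 61.0%, 53.2% and 51.0% of cases, which leaves room for mates counted singly, and without molecular identifiers all intervals and floors cover counting error only and may be too narrow. TMM factors turned reads into CPM (1.11, 0.946 and 0.953, trims of 30% and 5%, Python 3.11.15). The 10942 genes averaging 10 CPM or more were compared by log2 ratio with a prior of 5 CPM. Folds of named genes have no prior, exact 95% binomial intervals and a floor of 3 reads. With 1 library per group there was no test and no p-value. The steps were tested on simulated reads.

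All members are listed. Those above the filter are given in full, and of each partner list up to 2 highest and 2 lowest genes averaging 20 CPM or more. Trem2, Vegfa, Vegfc and the ratios to Kdr and Cdh5 were chosen after their values were seen. Members and lists were chosen with earlier results of these data known. The alternatives were other scalings, filters and priors, thinning, and read shares without division by length.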

Additional observations from a re-analysis of the deposited data

How the results depend on the processing

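No paired analysis was possible because each group is 1 library, and for the same reason no library could be left out of its group. Medians are relative to that of all genes. In ZOL against PBS, the 5 members at least 2-fold higher became 2 of 14 with median-of-ratios factors and 2 of 14 on the deposited RPKM scale, since Sema6d was no longer past 2-fold and Sema3b and Sema7a, still past it, left at the filter (4 of the same 16 were higher with either, a count added after seeing the data). They became 8 with a filter of 1 CPM, 2 with 50 CPM and 3 after thinning to the smallest library. The 4 lower ones became 7 on the deposited scale, over the 14 and over the same 16, and 2 with 50 CPM. The median of -0.43 became -0.15 on the deposited scale, 0.33 with 1 CPM and -0.86 with 50 CPM. In ZOL+Ang2 against ZOL, the 1 higher member became 2 with 1 CPM and the 8 lower ones 3 with 50 CPM. The median of -0.80 became -0.42 on the deposited scale, -0.44 with median-of-ratios factors, -0.33 with 50 CPM, -1.55 with a prior of 1 CPM, -0.48 after thinning and -1.37 when PBS was left out of scaling and filter (chosen after seeing the data, with 1 higher and 7 lower of 14). In ZOL+Ang2 against PBS, 8 lower members became 3 with 50 CPM, and the median of -0.97 became -1.44 with median-of-ratios factors, 0 with 1 CPM, -1.38 with 50 CPM and -1.54 after thinning. The cause was not tested, although fewer or more members were compared under each other filter (23 at 1 CPM and 9 at 50 CPM), and 14 under either other scaling and 15 after thinning. Sema6d in ZOL against PBS, past 2-fold with TMM factors, changed sign on the deposited scale (-0.048). Without division by length, the Nrp2 shares were 31.1%, 31.9% and 19.995% in PBS, ZOL and ZOL+Ang2, the Plxnd1 shares 32.2% under ZOL and 13.1% under ZOL+Ang2, and the class 3 shares 76.4% in PBS, 38.5% under ZOL and 84.7% under ZOL+Ang2. After thinning, Plxnd1 took 40.5% in ZOL and class 3 took 40.8% in ZOL and 78.3% in ZOL+Ang2. The class 3 share of ZOL+Ang2 thus went from above that of PBS (80.6%) to below it after thinning. The orders of the Nrp2 and Plxnd1 shares stayed as given. Depth limits PBS most, where a floor of 3 reads is 1.61 CPM against 0.191 in ZOL and 0.342 in ZOL+Ang2.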
